A study of Mus musculus with 9 samples.

Results

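The genes described are 33 genes of DNA double-strand break and excision repair, taken by name. Of these, 32 had a row that carried their symbol alone, out of 19938 genes with such a row, and Xrcc2 was not analysed here. They were followed in immortalized mouse embryonic fibroblasts (MEFs) of an ICR background, a proliferating connective tissue cell, in 3 groups of 3 arrays. The first group carried an shRNA against HSF1, the transcription factor of the heat shock response; an shRNA is a short hairpin RNA that lowers the transcript it matches. The second carried an shRNA against RPA1, which encodes the biggest protein of replication protein A (RPA). The third carried a scrambled control shRNA. Every group was infected for 2 h with an adenovirus at 1e8 pfu per ml, the scrambled group included, and then kept for 70 h in 10% serum at 37 degrees. The labels give no heat shock and no DNA damaging agent, and name 1 shRNA per target. Whether the arrays are separate cultures is not given, so the p-values measure only the spread between these arrays, whose number limits the precision.

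RPA coats single-stranded DNA wherever it is laid bare, at replication forks, at resected breaks and in the gaps of excision repair, and repair proteins assemble on it. Cells mend double-strand breaks either by rejoining the ends or by homologous recombination with an intact copy of the sequence as template. Excision repair removes damaged bases or bulky lesions from a single strand and fills the gap, and bypass polymerases copy past lesions that remain. Many recombination genes are transcribed mainly in S phase, and some excision repair genes, such as DDB2 and XPC, are p53 targets in human cells. The question of the study was whether HSF1 and RPA, acting as a complex, control which genes are expressed. For the repair genes this gives each shRNA against the scrambled control, and the 2 shRNAs against each other.

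Rpa1 read 9.42, 9.34 and 9.40 on the log2 scale in RPA1 shRNA arrays, against 11.40, 11.42 and 11.41 in scrambled arrays, so its knockdown was visible in each array. The level of Hsf1 was not analysed here, so the HSF1 knockdown was not checked. RPA1 shRNA array 3 stood apart from arrays 1 and 2. Over 506 genes at least 2-fold away in the mean of those 2 arrays, its difference from the scrambled mean was a median of 0.675 times theirs, against 1.08 and 1.06 times for arrays 1 and 2 measured the same way. Over all rows its mean correlation with arrays of the other groups was 0.9899, against 0.9868 and 0.9865 for arrays 1 and 2. With its own group the mean was 0.9923, against 0.9939 and 0.9937 for arrays 1 and 2. Its highest correlation outside its group, with HSF1 shRNA array 2, was 0.9926. Counts, and the differences of members that passed under RPA1 shRNA, are therefore also given without RPA1 shRNA array 3. Fibroblast markers were present, with a mean log2 signal over 9 genes of 11.35 to 11.46 in HSF1 shRNA arrays, 10.85 to 11.04 in RPA1 shRNA arrays and 11.48 to 11.52 in scrambled arrays. Of these 9 genes 1 rose and 3 fell under HSF1 shRNA, and 0 rose and 6 fell under RPA1 shRNA. The mean over 6 macrophage and other blood cell markers was 6.89 to 6.90 in HSF1 shRNA arrays, 7.12 to 7.18 in RPA1 shRNA arrays and 6.53 to 6.67 in scrambled arrays, with 2 that rose under HSF1 shRNA and 3 under RPA1 shRNA. Under RPA1 shRNA the log2 differences of these 6 ran from 0.09 to 2.06, with a median of 0.24. Of 5 neural markers 3 rose under HSF1 shRNA, and 3 rose and 1 fell under RPA1 shRNA. Of 7 epithelial, 5 endothelial and 5 muscle markers 1 per list rose and 0 fell under each shRNA. Of 4 adipocyte markers 1 rose under HSF1 shRNA and 0 under RPA1 shRNA, and 0 fell. The part of these marker differences in the repair gene results was not tested. In whole cultures, fewer cells that express a gene and less RNA per cell cannot be told apart.

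HSF1 shRNA against the scrambled control left most repair genes short of the threshold. The kinase gene Atm rose 1.32-fold, and the Fanconi anaemia gene Fanci and the nucleotide excision repair gene Ddb2 fell, by 1.30-fold and 1.49-fold. These 1 rise and 2 falls are 9.38% of the 32 members. Of all 19938 genes 16.1% passed the same threshold, a limma adjusted p under 0.05 over all genes, with 9.89% higher and 6.21% lower. Among genes above the median gene in mean signal, tested alone, 16.7% of the 30 members there passed, against 31.9% of the genes. Without overlap between the groups, 4 members lay above and 10 below the scrambled arrays, against 23.9% above and 13.9% below of all genes. The median log2 difference was -0.03 for the members and 0.04 for all genes. With each array centred on its median, the higher and lower calls over all genes numbered 1593 and 1717, against 1971 and 1239 as deposited.

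**Figure D1:**
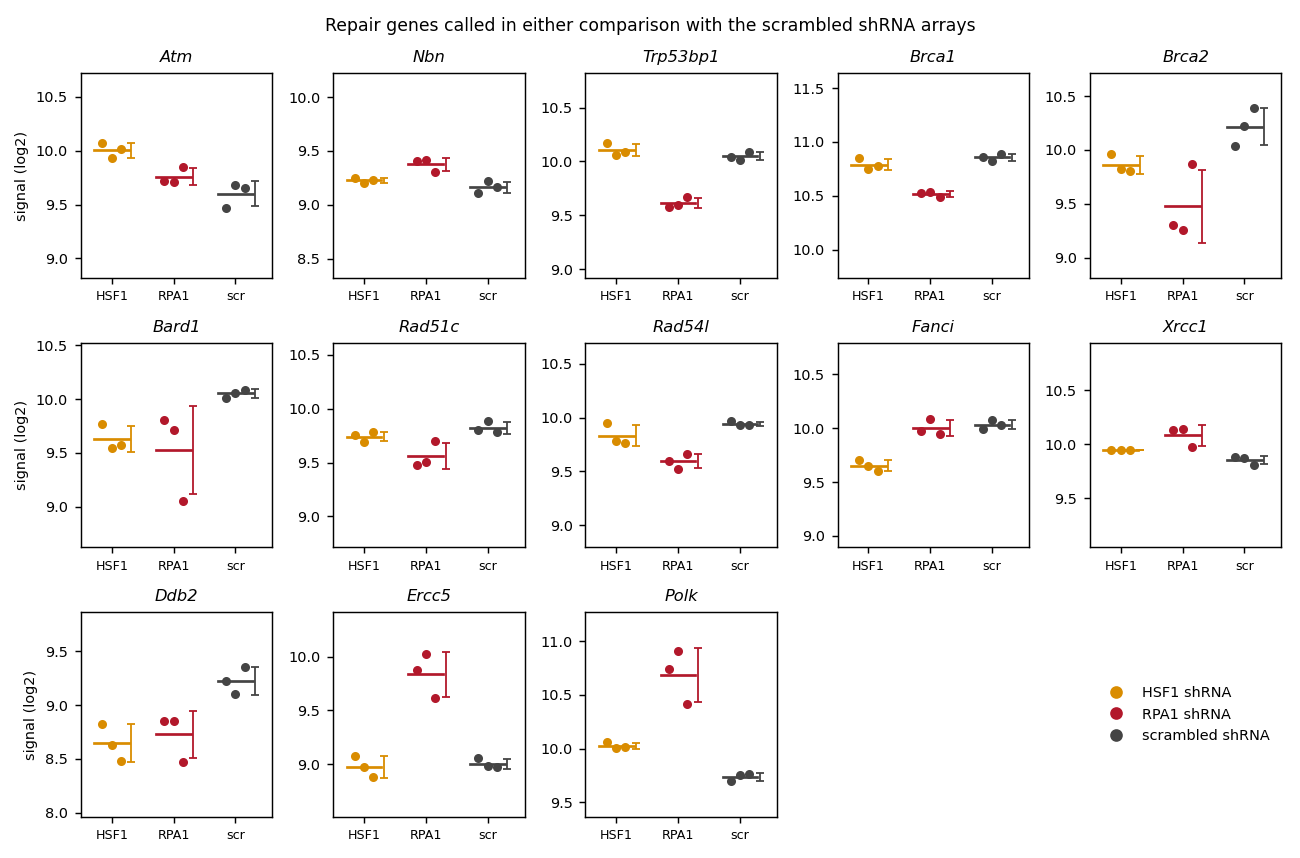
Signal on the log2 scale of the 13 repair genes that passed the threshold against the scrambled arrays under HSF1 shRNA, RPA1 shRNA or both. Each point is 1 array, the horizontal line is the mean of 3 arrays and the bar is the SD. Polk and Ercc5 lie above the scrambled arrays, and Brca1, Trp53bp1 and Rad54l below them, in all 3 RPA1 shRNA arrays.

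Atm encodes the kinase that double-strand breaks activate. It read 10.07, 9.93 and 10.01 in HSF1 shRNA arrays, against 9.47, 9.68 and 9.65 in scrambled arrays, and the groups did not overlap (log2 difference 0.40 ± 0.07, limma adjusted p = 0.00503, SE, n = 3 arrays per group). The other 6 genes of break sensing and signalling did not pass. Rad50, Mre11a and Nbn, whose products form the complex that binds broken ends, stood at 0.04 ± 0.07, 0.03 ± 0.05 and 0.06 ± 0.05, and the kinase gene Chek2 at 0.08 ± 0.09. Trp53bp1, whose product shields ends from resection and favours end joining, stood at 0.06 ± 0.05. Mdc1, the gene of a scaffold that gathers repair proteins on marked chromatin, read 10.69, 10.67 and 10.55 in HSF1 shRNA arrays, against 10.98, 10.97 and 10.95 in scrambled arrays. It stood below in every array but did not pass (-0.33 ± 0.12, limma adjusted p = 0.0937).

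Of 11 homologous recombination genes 0 passed under HSF1 shRNA by limma, with 2 at an unadjusted p under 0.05, and 10 of the 11 estimates were below 0 with a median of -0.10. Of all 19938 genes 7587 had estimates below 0, and their median was 0.04. The share of all genes at that unadjusted p was not counted, so the count at that p does not set the recombination genes apart from other genes. The 2 recombination genes at that p were Bard1 and Brca2. Bard1, whose product pairs with BRCA1, read 9.77, 9.55 and 9.58 in HSF1 shRNA arrays, against 10.01, 10.06 and 10.09 in scrambled arrays (-0.42 ± 0.17, limma adjusted p = 0.124). Brca2, whose product is needed for homologous recombination, read 9.96, 9.82 and 9.81 in HSF1 shRNA arrays, against 10.04, 10.23 and 10.39 in scrambled arrays (-0.35 ± 0.15, limma adjusted p = 0.16). Both lay below the scrambled arrays without overlap. Brca1 stood at -0.07 ± 0.05, with a 95% interval from -0.17 to 0.04. The lowest of the remaining estimates was that of Xrcc3, at -0.13 ± 0.08, and the highest that of Palb2, at 0.03 ± 0.07.

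In the Fanconi anaemia pathway, which unhooks crosslinks between DNA strands, Fanci read 9.70, 9.65 and 9.61 in HSF1 shRNA arrays, against 9.99, 10.07 and 10.03 in scrambled arrays, and fell (-0.38 ± 0.05, limma adjusted p = 0.00183). Its product forms a clamp with that of Fancd2, which read 10.28, 10.13 and 10.07 in HSF1 shRNA arrays, against 10.37, 10.39 and 10.38 in scrambled arrays. Fancd2 lay below without overlap and did not pass (-0.22 ± 0.07, limma adjusted p = 0.0582). Of the core complex genes, Fancc stood at -0.14 ± 0.07 and Fanca at 0.02 ± 0.06.

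Ddb2, whose product finds ultraviolet lesions in chromatin, read 8.83, 8.63 and 8.48 in HSF1 shRNA arrays, against 9.22, 9.10 and 9.35 in scrambled arrays, and fell (-0.58 ± 0.12, limma adjusted p = 0.0114). The other 4 nucleotide excision repair genes did not pass. Xpc, a partner in lesion recognition, stood at 0.01 ± 0.05, and the incision genes Ercc1 and Ercc5 at 0.00 ± 0.04 and -0.03 ± 0.10. Ercc2, a helicase gene of the transcription factor TFIIH, stood at 0.18 ± 0.06. Of single-strand break and mismatch repair, the scaffold gene Xrcc1 stood at 0.09 ± 0.06, the break sensor gene Parp1 at 0.04 ± 0.06, and Msh6, whose product recognises mismatches, at -0.17 ± 0.07. Polk, the gene of a bypass polymerase, read 10.06, 10.01 and 10.01 in HSF1 shRNA arrays, against 9.70, 9.75 and 9.76 in scrambled arrays, and did not pass (0.29 ± 0.10, limma adjusted p = 0.0947). Rrm2b, whose product helps supply nucleotides for repair, stood at 0.23 ± 0.10.

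The calls of Atm and Fanci held in all 18 alternative settings tried. Ddb2 lost its call without scrambled array 3 (adjusted p = 0.0522), when 1 member fell, and with the unmoderated linear model (0.0573). RPA1 shRNA array 3 enters this comparison only through the shared estimate of the spread. Without it 2 members rose and 7 fell, since Polk (adjusted p = 0.00454), Bard1 (0.00189), Mdc1 (0.00734), Brca2 (0.0159), Fancd2 (0.0213) and Msh6 (0.0364) then passed with the same differences. These are 28.1% of the members, and without the array 23.6% of all genes passed, 14.4% higher and 9.16% lower. Without RPA1 shRNA array 2, 2 rose and 3 fell, which is 15.6% of the members, against 17% of all genes.

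RPA1 shRNA against the scrambled control changed 11 of 32 repair genes, 4 higher and 7 lower, which is 34.4% of the members. Of all genes 30.1% passed, 15.4% higher and 14.7% lower, so the members' share was near that of all genes. Among genes above the median gene in mean signal, tested alone, 40% of the 30 members there passed, against 51.5% of the genes. Without overlap, 8 members lay above and 12 below the scrambled arrays, against 21.9% above and 19.2% below of all genes. The median log2 difference was -0.02 for the members and 0.02 for all genes. Polk rose 1.93-fold and Ercc5 1.78-fold, and Xrcc1 and Nbn rose 1.17-fold and 1.16-fold. Brca2 fell the most by estimate, 1.67-fold, and Bard1, Ddb2, Trp53bp1, Rad54l, Brca1 and Rad51c also fell. Of the 7 that fell 5 belong to homologous recombination, where 5 of 11 genes fell and 0 rose. Without RPA1 shRNA array 3 all 11 kept their calls, and Rad50 (0.27, adjusted p = 0.0042) and Parp1 (0.18, adjusted p = 0.0227) rose too. These are 40.6% of the members, against 36.3% of all genes without the array, 18.5% higher and 17.8% lower.

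**Figure D2:**
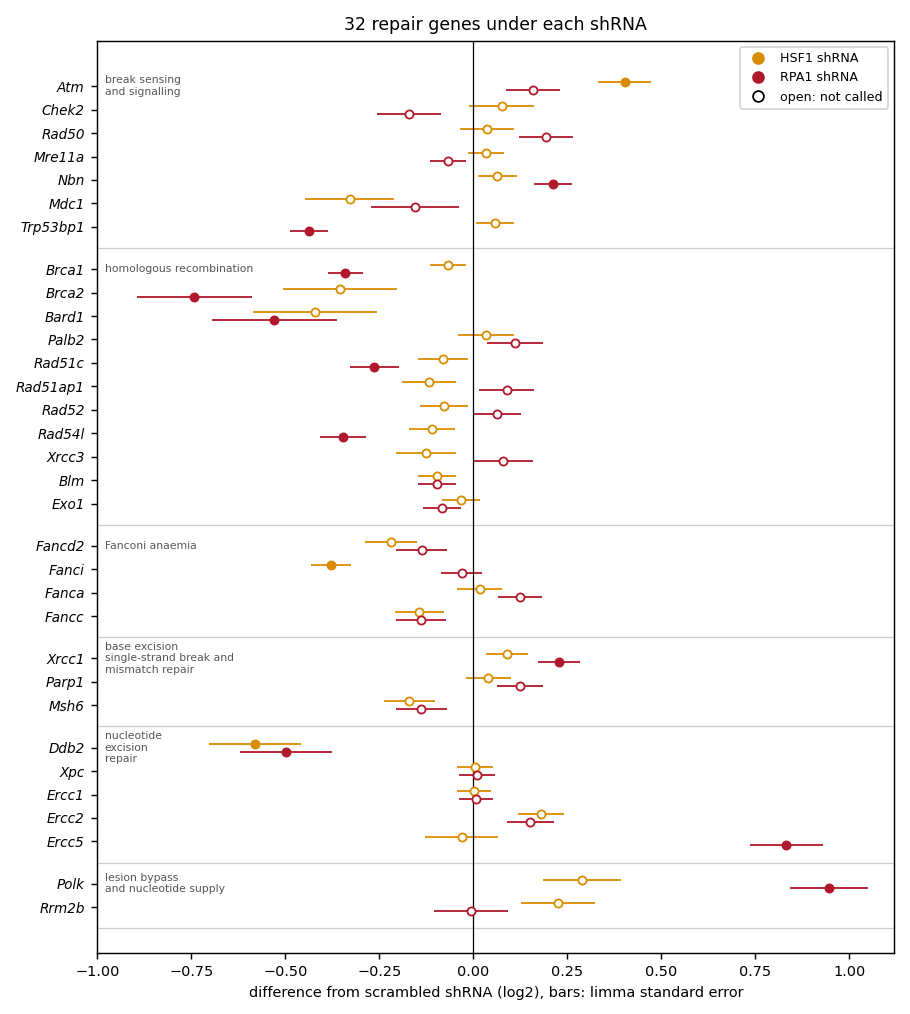
Log2 difference from the scrambled arrays for each of the 32 repair genes, grouped by pathway, under HSF1 shRNA and RPA1 shRNA, with the limma standard error as bars. Filled points passed an adjusted p under 0.05 over all genes and open points did not. The 5 filled RPA1 shRNA points in homologous recombination lie between -0.74 and -0.26, and those of Ercc5 and Polk at 0.83 and 0.95.

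Polk encodes polymerase kappa, which copies past lesions and also fills gaps in nucleotide excision repair. It read 10.74, 10.91 and 10.41 in RPA1 shRNA arrays, against 9.70, 9.75 and 9.76 in scrambled arrays (log2 difference 0.95 ± 0.10, limma adjusted p = 0.000148, SE, n = 3 arrays per group). Ercc5 encodes XPG, 1 of the 2 nucleases that cut out the damaged stretch. It read 9.87, 10.03 and 9.61 in RPA1 shRNA arrays, against 9.06, 8.99 and 8.97 in scrambled arrays (0.83 ± 0.10, limma adjusted p = 0.000213). In both genes RPA1 shRNA array 3 was the lowest of its group, yet it lay above every scrambled array. Without it the log2 differences were 1.08 for Polk and 0.94 for Ercc5.

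None of the other 4 nucleotide excision repair genes rose. Ddb2 read 8.85, 8.85 and 8.47 in RPA1 shRNA arrays, against 9.22, 9.10 and 9.35 in scrambled arrays, and fell (-0.50 ± 0.12, limma adjusted p = 0.0123, and -0.37 without RPA1 shRNA array 3). Xpc read 9.09, 9.09 and 9.09 in RPA1 shRNA arrays, against 9.12, 9.10 and 9.03 in scrambled arrays, and stood at 0.01 ± 0.05 with a 95% interval from -0.10 to 0.12. Ercc1 stood at 0.01 ± 0.04 and Ercc2 at 0.15 ± 0.06 (limma adjusted p = 0.0997). Rrm2b stood at -0.01 ± 0.10 with a 95% interval from -0.23 to 0.22.

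The promoters of the 2 genes that rose most are shown. They came from RefSeq (build GRCm38.p6) as windows of 300 bases, 250 before the start of transcription and 50 after it, and 25 of the 32 genes had 28 windows. Capitals mark letters of the E2F type (TTTCCCGC or TTTGGCGC) or of a pair of heat shock units (GAANNTTC or TTCNNGAA), searched on both strands and printed as the gene's own strand reads. Polk has 2 windows, and the one at its upstream start is printed.
Polk, chr13:96542530-96542829, minus strand: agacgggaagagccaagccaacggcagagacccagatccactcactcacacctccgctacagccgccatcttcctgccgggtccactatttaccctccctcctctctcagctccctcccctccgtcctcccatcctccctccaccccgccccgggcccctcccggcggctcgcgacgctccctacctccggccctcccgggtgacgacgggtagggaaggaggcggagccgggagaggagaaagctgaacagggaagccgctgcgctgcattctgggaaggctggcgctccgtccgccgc
Ercc5, chr1:44147494-44147793, plus strand: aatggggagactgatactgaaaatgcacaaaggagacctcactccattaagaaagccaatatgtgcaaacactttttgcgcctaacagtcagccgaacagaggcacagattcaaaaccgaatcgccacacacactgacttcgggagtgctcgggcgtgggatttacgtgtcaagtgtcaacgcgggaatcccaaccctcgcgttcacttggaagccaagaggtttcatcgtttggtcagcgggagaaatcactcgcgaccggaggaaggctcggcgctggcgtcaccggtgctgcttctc
Neither these windows nor the other one of Polk held any of these letters.

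The 5 homologous recombination genes that fell under RPA1 shRNA were Brca1, Bard1, Brca2, Rad51c and Rad54l. Brca1, whose product promotes resection, read 10.53, 10.54 and 10.48 in RPA1 shRNA arrays, against 10.86, 10.82 and 10.89 in scrambled arrays (-0.34 ± 0.05, limma adjusted p = 0.000585). Leaving out RPA1 shRNA array 3 gave -0.32. The arrays of each group lay much closer together than the groups did. Bard1, the gene of the BRCA1 partner, read 9.80, 9.71 and 9.06 in RPA1 shRNA arrays, against 10.01, 10.06 and 10.09 in scrambled arrays (-0.53 ± 0.17, limma adjusted p = 0.0365). RPA1 shRNA array 3 was the lowest array for Bard1, and without it the log2 difference was -0.29. The other 2 rows of Bard1 differed by -0.70 and -0.35, in the same direction.

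Brca2 read 9.31, 9.25 and 9.87 in RPA1 shRNA arrays, against 10.04, 10.23 and 10.39 in scrambled arrays (-0.74 ± 0.15, limma adjusted p = 0.00486). RPA1 shRNA array 3 lay nearest to the scrambled arrays here, and without it the log2 difference was -0.94. Rad51c, which is needed for homologous recombination, read 9.48, 9.51 and 9.70 in RPA1 shRNA arrays, against 9.80, 9.89 and 9.78 in scrambled arrays (-0.26 ± 0.07, limma adjusted p = 0.0136). Rad54l, the gene of a motor protein that moves along DNA, read 9.60, 9.53 and 9.66 in RPA1 shRNA arrays, against 9.97, 9.93 and 9.93 in scrambled arrays (-0.35 ± 0.06, limma adjusted p = 0.00212). Without RPA1 shRNA array 3 the log2 differences were -0.33 for Rad51c and -0.38 for Rad54l. In all 5 genes the groups did not overlap.

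The other 6 recombination genes did not pass under RPA1 shRNA. Palb2, whose product bridges BRCA1 and BRCA2, stood at 0.11 ± 0.07, Rad51ap1 at 0.09 ± 0.07, the strand annealing gene Rad52 at 0.06 ± 0.06, and Xrcc3 at 0.08 ± 0.08. The helicase gene Blm and the nuclease gene Exo1 stood at -0.10 ± 0.05 and -0.08 ± 0.05. These 6 estimates thus lay on both sides of 0.

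Windows of 3 of the 5 recombination genes that fell held letters of the E2F type, and they are shown because E2F factors drive many S phase genes.
Brca2, chr5:150522371-150522670, plus strand: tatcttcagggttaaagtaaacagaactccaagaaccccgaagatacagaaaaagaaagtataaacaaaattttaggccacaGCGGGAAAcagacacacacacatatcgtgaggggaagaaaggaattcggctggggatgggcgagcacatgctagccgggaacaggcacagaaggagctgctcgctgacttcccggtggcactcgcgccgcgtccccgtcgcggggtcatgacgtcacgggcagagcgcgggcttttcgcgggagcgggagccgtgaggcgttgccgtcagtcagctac
Bard1, chr1:71102923-71103222, minus strand: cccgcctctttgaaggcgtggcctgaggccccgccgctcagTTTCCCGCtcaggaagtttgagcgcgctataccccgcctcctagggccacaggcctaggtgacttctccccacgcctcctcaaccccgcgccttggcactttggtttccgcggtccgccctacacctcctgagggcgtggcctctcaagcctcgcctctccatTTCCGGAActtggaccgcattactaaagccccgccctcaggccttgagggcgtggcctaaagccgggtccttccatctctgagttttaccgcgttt
Rad51c, chr11:87404905-87405204, minus strand: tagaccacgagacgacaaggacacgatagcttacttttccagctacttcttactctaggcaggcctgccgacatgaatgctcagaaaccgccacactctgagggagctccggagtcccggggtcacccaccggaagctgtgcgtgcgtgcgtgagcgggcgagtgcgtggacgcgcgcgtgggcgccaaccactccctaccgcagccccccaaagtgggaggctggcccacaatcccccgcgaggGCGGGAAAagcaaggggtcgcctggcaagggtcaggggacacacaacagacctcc
Relative to the start, the E2F type letters are at -168 in Brca2, -209 in Bard1 and -5 in this window of Rad51c, 1 of 2 for that gene. The other run of capitals in Bard1, at -46, is the pair of heat shock units. Letters of the E2F type were in 6 of 28 member windows (21.4%), against 1.6% of 32851 windows of all genes. The other 3 were those of Chek2, Mdc1 and Msh6, which did not pass under RPA1 shRNA, and the windows of Brca1 and Rad54l, which fell, held none. A pair of heat shock units was in 2 of 28 windows (7.1%), those of Bard1 and Ercc2, against 15.1% of all. The heat shock element of 3 units in turn, which contains the pair, was in 0 of 28 windows, against 0.6% of all. The letters CCAAT were in 17 of 28 (60.7%), against 37.4%. The 2 windows of Rad54l nearly coincide. These are matches of letters and not binding sites, and whether they bear on any change was not tested.

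In break sensing and signalling 1 gene rose and 1 fell under RPA1 shRNA. Trp53bp1 read 9.58, 9.59 and 9.67 in RPA1 shRNA arrays, against 10.04, 10.02 and 10.09 in scrambled arrays, and fell (-0.44 ± 0.05, limma adjusted p = 0.000204). Nbn read 9.41, 9.41 and 9.31 in RPA1 shRNA arrays, against 9.11, 9.22 and 9.16 in scrambled arrays, and rose (0.21 ± 0.05, limma adjusted p = 0.011). Without RPA1 shRNA array 3 the log2 differences were -0.46 for Trp53bp1 and 0.25 for Nbn. A second row of Nbn differed by 0.02, and with the mean of both rows the call was lost (adjusted p = 0.102). Of its partners in the complex, Rad50 stood at 0.19 ± 0.07, limma adjusted p = 0.0685, and Mre11a at -0.07 ± 0.05. Atm stood at 0.16 ± 0.07, Chek2 at -0.17 ± 0.09 and Mdc1 at -0.16 ± 0.12. The RPA1 shRNA arrays of Mdc1, at 10.84, 11.08 and 10.51, spread on both sides of the scrambled arrays, and without array 3 its difference was -0.01.

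Xrcc1 read 10.13, 10.14 and 9.97 in RPA1 shRNA arrays, against 9.88, 9.88 and 9.81 in scrambled arrays, and rose (0.23 ± 0.06, limma adjusted p = 0.0119). Without RPA1 shRNA array 3 the difference was 0.28, and the call was lost without scrambled array 3 (adjusted p = 0.0514). Parp1 stood at 0.12 ± 0.06 and Msh6 at -0.14 ± 0.07. Of 4 Fanconi anaemia genes 0 passed by limma, with 0 at an unadjusted p under 0.05, a p at which the share of all genes was not counted. Fanci, which fell under HSF1 shRNA, read 9.97, 10.08 and 9.94 in RPA1 shRNA arrays and stood at -0.03 ± 0.05, with a 95% interval from -0.15 to 0.09. Fancd2 stood at -0.14 ± 0.07, Fanca at 0.12 ± 0.06 and Fancc at -0.14 ± 0.07.

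The calls of Polk, Ercc5, Brca1, Brca2, Trp53bp1 and Rad54l under RPA1 shRNA held in all 18 alternative settings. That of Bard1 was lost without any 1 of the scrambled arrays (adjusted p from 0.0805 to 0.102), without HSF1 shRNA array 2 or 3 (0.0551 and 0.0547), with only the 6 arrays compared (0.0867) and with the unmoderated model (0.115). That of Rad51c was lost without scrambled array 2 (0.0562) or RPA1 shRNA array 1 (0.0541), and that of Ddb2 without scrambled array 3 (0.0536) and with the unmoderated model (0.0551).

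**Figure D3:**
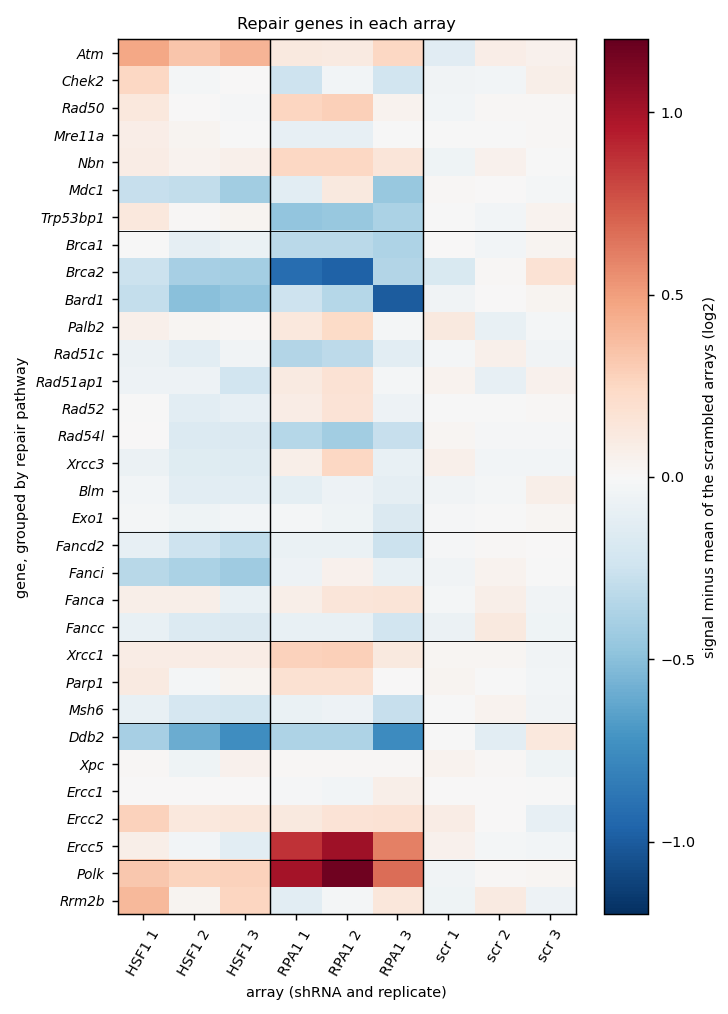
Signal of each repair gene in each array minus the mean of the 3 scrambled arrays, on the log2 scale, with red above and blue below. RPA1 shRNA array 3 is paler than arrays 1 and 2 for Polk, Ercc5 and Brca2, at 0.67, 0.61 and -0.35, and deeper for Bard1.

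RPA1 shRNA against HSF1 shRNA tests whether the 2 shRNA groups differed, and the scrambled arrays enter it only through the shared estimate of the spread. Of 32 members 3 were higher and 4 lower under RPA1 shRNA, which is 21.9%, while 24.4% of all genes passed, 9.71% higher and 14.7% lower. Among genes above the median gene in mean signal, tested alone, 36.7% of the 30 members there passed, against 44.8% of the genes. Ercc5 was 1.82-fold, Polk 1.58-fold and Fanci 1.27-fold higher, and Trp53bp1, Brca1, Rad54l and Atm were lower, by 1.41-fold, 1.21-fold, 1.18-fold and 1.18-fold. Without overlap, 7 members lay above and 5 below the HSF1 shRNA arrays, against 14.1% above and 20.5% below of all genes. With each array centred on its median, the higher and lower calls over all genes were 2672 and 2426, against 1935 and 2928 as deposited.

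Ercc5 differed by 0.86 ± 0.10, limma adjusted p = 0.000404, with 9.87, 10.03 and 9.61 in RPA1 shRNA arrays and 9.08, 8.97 and 8.88 in HSF1 shRNA arrays. Polk differed by 0.66 ± 0.10, limma adjusted p = 0.00197. Fanci read 9.97, 10.08 and 9.94 in RPA1 shRNA arrays, against 9.70, 9.65 and 9.61 in HSF1 shRNA arrays (0.35 ± 0.05, limma adjusted p = 0.00182). In all 3 genes every RPA1 shRNA array lay above every HSF1 shRNA array. Trp53bp1 read 9.58, 9.59 and 9.67 in RPA1 shRNA arrays, against 10.17, 10.06 and 10.09 in HSF1 shRNA arrays (-0.50 ± 0.05, limma adjusted p = 0.000276). Brca1 read 10.53, 10.54 and 10.48 in RPA1 shRNA arrays, against 10.85, 10.75 and 10.77 in HSF1 shRNA arrays (-0.27 ± 0.05, limma adjusted p = 0.00319). Rad54l stood at -0.24 ± 0.06, limma adjusted p = 0.0198, and Atm at -0.24 ± 0.07, limma adjusted p = 0.0322. These 4 genes did not overlap between the knockdowns either.

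Bard1, Ddb2, Brca2, Rad51c, Nbn and Xrcc1 passed against the scrambled arrays under RPA1 shRNA and did not pass this direct test. Bard1 stood at -0.11 ± 0.17 with a 95% interval from -0.48 to 0.26, and Ddb2 at 0.08 ± 0.12 with an interval from -0.19 to 0.36. Brca2 stood at -0.39 ± 0.15, limma adjusted p = 0.0981, and without RPA1 shRNA array 3 it passed (-0.58, adjusted p = 0.00136), while Bard1 turned to 0.13, adjusted p = 0.231. Rad51c stood at -0.18 ± 0.07, Nbn at 0.15 ± 0.05 and Xrcc1 at 0.14 ± 0.06, and all 3 passed without that array (adjusted p = 0.00547, 0.0185 and 0.00991). Without that array 10 members were higher and 7 lower, which is 53.1% of the members, while 32.8% of all genes passed, 13.9% higher and 18.9% lower. Without HSF1 shRNA array 1 or RPA1 shRNA array 1 the lower count was 2. In each of these settings 15.6% of the members passed, against 17.4% and 16.2% of all genes in turn. The call of Atm was lost without HSF1 shRNA array 1 or 3 or RPA1 shRNA array 1 or 2 (adjusted p from 0.0822 to 0.109), with median scaling (0.0614) and with the unmoderated model (0.0736). That of Rad54l was lost without HSF1 shRNA array 1 or RPA1 shRNA array 1 or 2 (0.0575 to 0.0694) and with only the 6 arrays compared (0.0613).

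Repair genes outside the 33 were described by lists of the same pathways, and 77 of 87 had a row. Under HSF1 shRNA 12 of the 77 rose and 9 fell, 27.3% in all, and under RPA1 shRNA 9 rose and 20 fell, 37.7% in all. Of all genes 16.1% passed under HSF1 shRNA and 30.1% under RPA1 shRNA, and the counts of single pathways stand against the same shares. Their median log2 differences were -0.01 and -0.05. The counts moved with single arrays. Under HSF1 shRNA rises numbered 6 without scrambled array 1 and 7 without scrambled array 3 or HSF1 shRNA array 1 or 3, and falls 5 without scrambled array 2 or HSF1 shRNA array 2 or 3. Under RPA1 shRNA rises numbered 14 without RPA1 shRNA array 3 and 5 without scrambled array 3 or RPA1 shRNA array 2. By pathway, leaving out RPA1 shRNA array 3 moved the counts under RPA1 shRNA to 2 rises in signalling and 1 rise in the Fanconi anaemia list. Recombination then had 3 rises and 2 falls, and nucleotide excision repair 4 rises and 2 falls. Base excision had 5 falls and mismatch repair 1 fall. Leaving the array out moved the counts under HSF1 shRNA to 5 rises in recombination and 5 in nucleotide excision repair. Falls moved to 1 in the Fanconi anaemia list, 1 in mismatch repair and 2 in lesion bypass. Every gene of these lists named as risen or fallen under either shRNA passed without that array in the same direction. Under RPA1 shRNA the log2 difference was then 0.84 for Gtf2h1, 0.79 for Rev1, -0.50 for Xrcc5 and -0.62 for Fancl.

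Of 12 other nucleotide excision repair genes 4 rose and 1 fell under HSF1 shRNA, and 3 rose and 1 fell under RPA1 shRNA. Gtf2h1, the gene of a TFIIH subunit, rose under both, by 0.45 ± 0.08 under HSF1 shRNA (limma adjusted p = 0.00409) and 0.84 ± 0.08 under RPA1 shRNA (4.85e-05). Cetn2, the gene of an XPC partner, rose under HSF1 shRNA (0.74 ± 0.13, limma adjusted p = 0.00534), and the damage verification gene Xpa fell under RPA1 shRNA (-0.42 ± 0.07, limma adjusted p = 0.00111). Of 6 other bypass genes 1 rose and 4 fell under RPA1 shRNA. Rev1, the gene of a scaffold polymerase, rose (0.67 ± 0.10, limma adjusted p = 0.000891) and the polymerase gene Poli fell (-0.44 ± 0.09, limma adjusted p = 0.00383). Under HSF1 shRNA 0 of the 6 rose and 1 fell, Rev3l (-0.40 ± 0.06, limma adjusted p = 0.00353).

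Of 8 end joining genes 2 rose and 2 fell under RPA1 shRNA. Xrcc6 and Xrcc5, the genes of the Ku proteins that cap broken ends, fell, with log2 differences of -0.36 ± 0.06, limma adjusted p = 0.00168, and -0.35 ± 0.11, limma adjusted p = 0.0387. Under HSF1 shRNA 2 rose and 0 fell, namely Polq, a gene of microhomology joining (0.26 ± 0.06, limma adjusted p = 0.0132), and the ligase gene Lig4 (0.23 ± 0.05, limma adjusted p = 0.0206). Of 8 other signalling genes 0 rose and 3 fell under RPA1 shRNA, among them Prkdc, the gene of the kinase that Ku recruits (-0.47 ± 0.10, limma adjusted p = 0.00477), and Rif1, of a partner of the Trp53bp1 product (-0.45 ± 0.07, limma adjusted p = 0.00139). Rif1 was the 1 that fell under HSF1 shRNA (-0.27 ± 0.07, limma adjusted p = 0.0344).

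Of 15 other recombination genes 4 rose and 2 fell under HSF1 shRNA, and 2 rose and 3 fell under RPA1 shRNA. The resection nuclease gene Dna2 rose under both, by 0.39 ± 0.08 under HSF1 shRNA (limma adjusted p = 0.00721) and 0.36 ± 0.08 under RPA1 shRNA (0.00534). The helicase gene Wrn fell under RPA1 shRNA (-0.51 ± 0.06, limma adjusted p = 0.000308). Of 16 other base excision genes 1 rose and 4 fell under HSF1 shRNA, and 1 rose and 4 fell under RPA1 shRNA. The glycosylase gene Neil3 fell under both, with -0.56 ± 0.10 under HSF1 shRNA (limma adjusted p = 0.00513) and -0.65 ± 0.10 under RPA1 shRNA (0.000963). Of 4 other mismatch repair genes 0 passed under HSF1 shRNA by limma, with 3 at an unadjusted p under 0.05, and 2 fell under RPA1 shRNA, among them Pms1 (-0.51 ± 0.09, limma adjusted p = 0.00159). The share of all genes at that unadjusted p was not counted, so the count at that p does not set the mismatch repair genes apart from other genes. Of 8 other Fanconi anaemia genes Fancb rose under HSF1 shRNA (0.36 ± 0.08, limma adjusted p = 0.0135) and Fancl fell under RPA1 shRNA (-0.43 ± 0.14, limma adjusted p = 0.0405), with no other call among them.

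Proliferation genes and p53 target genes were set beside the members because repair genes are tied to S phase and to p53. Of 20 proliferation genes 0 rose and 6 fell under HSF1 shRNA, with 9 falls without RPA1 shRNA array 3, and 1 rose and 5 fell under RPA1 shRNA. Without RPA1 shRNA array 3, 1 rose under HSF1 shRNA, and 2 rose and 5 fell under RPA1 shRNA. The falls under RPA1 shRNA numbered 3, 2 and 1 without scrambled array 1, 2 and 3 in turn. The mean log2 signal of the list was 12.02 to 12.08 in HSF1 shRNA arrays, 12.03 to 12.09 in RPA1 shRNA arrays and 12.13 to 12.15 in scrambled arrays. Of 20 p53 target genes 7 rose and 1 fell under HSF1 shRNA, with a median of 0.16 and with 4 rises without scrambled array 3. Under RPA1 shRNA 17 rose and 1 fell, with a median of 0.82, and without RPA1 shRNA array 3 the counts were 17 and 2. The mean log2 signal of this list was 9.80 to 9.90 in HSF1 shRNA arrays, 10.37 to 10.57 in RPA1 shRNA arrays and 9.65 to 9.69 in scrambled arrays. The part of either shift in the members' differences was not tested.

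**Figure D4:**
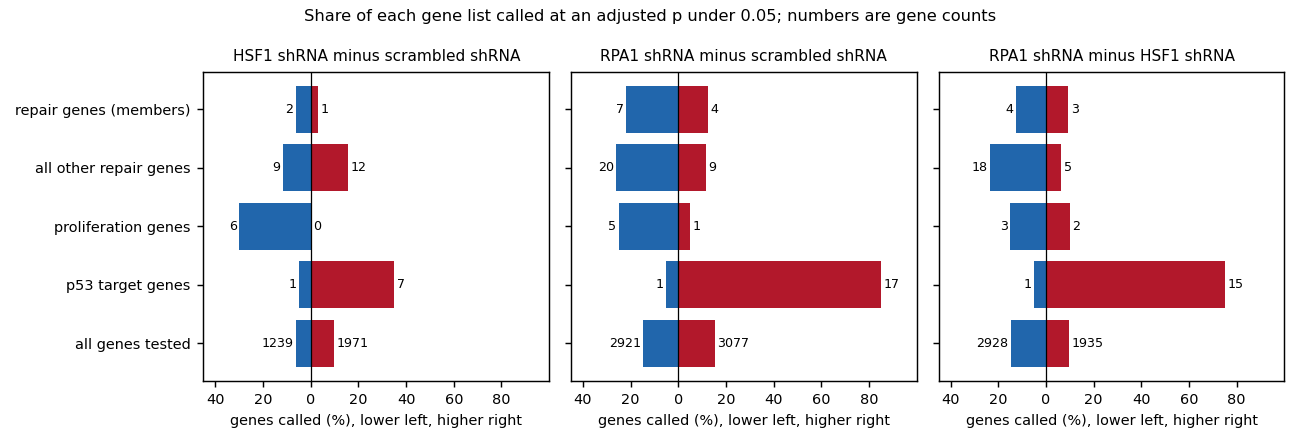
Share of each gene list that passed an adjusted p under 0.05, lower to the left and higher to the right of 0, in the 3 comparisons, with gene counts at the bar ends. Under RPA1 shRNA 7 of the 32 repair genes are lower and 4 higher, while 17 of 20 p53 target genes are higher.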

How the data were processed

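The data are 9 Affymetrix Mouse Gene 1.0 ST arrays, with 200 ng of RNA labelled for each. The deposited values are 1 log2 signal per row and array, made with RMA in Partek 6.5 per the submitters' processing notes. The log2 scale was inferred from the values, and the genome build is not given in the sources used here. Of 35557 rows 21789 had 1 gene symbol in the array annotation. Each of 19938 genes was represented by its row of highest mean signal. Group means over all 9 arrays were compared in limma 3.58.1 (R 4.3.3) with moderated variances, and p-values were adjusted by Benjamini-Hochberg across all genes for each of 3 contrasts. Tests were two-sided, and a gene passed at an adjusted p under 0.05. With 3 arrays a side, an exact permutation test could not give less than 0.1. The procedure was tested on simulated data. Alternatives covered scaling, the filter, the row rule, the variance model, weights, a replicate block and each array left out. Every member could be named, and of the other lists at most 2 called genes per list and comparison. The members and lists were chosen with earlier results of these data known, and the alternatives for counts of the other lists were added after seeing the data.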

Additional observations from a re-analysis of the deposited data

How the results depend on the processing

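No called member changed direction under any of the 18 alternatives. Under HSF1 shRNA against the scrambled arrays, where 1 member rose and 2 fell, falls numbered 5 with median scaling, 1 with the unmoderated model and 7 with only the 6 arrays compared or with array weights, and rises 2 among genes above the median gene, 2 with the 6 arrays and 3 with array weights. With 1 array left out, rises ranged from 1 to 2 and falls from 1 to 7. Called members were 18.8% with median scaling, 6.25% with the unmoderated model, 28.1% with the 6 arrays and 31.2% with array weights. Of all genes these settings called 16.6%, 11.6%, 22.7% and 26.6% in turn. Under RPA1 shRNA, where 4 rose and 7 fell, rises numbered 8 with quantile scaling and 6 with array weights. Falls numbered 9 with array weights and 5 with the unmoderated model. Called members were 46.9% with quantile scaling, 46.9% with array weights and 28.1% with the unmoderated model, against 31.7%, 45.5% and 24.7% of all genes. With 1 array left out, rises ranged from 3 to 6 and falls from 5 to 7. Between the 2 shRNAs 3 were higher and 4 lower. The higher count was 6 with quantile scaling, 9 with median scaling, 5 among genes above the median gene and 12 with array weights. The lower count was 9 with array weights, and with 1 array left out the ranges were 3 to 10 and 2 to 7. Called members were 31.2% with quantile scaling, 37.5% with median scaling and 65.6% with array weights, against 26%, 25.6% and 39.8% of all genes. The cause was not tested. Over all genes, calls under HSF1 shRNA numbered 5313 with array weights, 2023 without scrambled array 1, 1953 without scrambled array 3 and 2041 without HSF1 shRNA array 3, against 3210. Calls under RPA1 shRNA numbered 9065 with array weights, against 5998. Between the 2 shRNAs there were 7926 with array weights and 3228 without RPA1 shRNA array 1, against 4863. Whether the replicate number pairs the arrays is not given. The correlation of deviations from the group means lay between -0.159 and 0.093 for 9 same-numbered pairs. It lay between -0.163 and 0.163 for the other 18, and 4 of 9 arrays correlated best with their own number. Between scrambled and RPA1 shRNA arrays, same-numbered pairs stood at 0.093, 0.088 and 0.065, and the others between -0.118 and 0.031. Between scrambled and HSF1 shRNA arrays, same-numbered pairs stood at -0.127, 0.007 and 0.010. Between HSF1 shRNA and RPA1 shRNA arrays they stood at -0.159, 0.034 and -0.014. Deviations within a group of 3 cancel, so these correlations cannot decide whether the arrays are paired. With the number as a replicate block the members' counts were as without it. They were 1 and 2 under HSF1 shRNA, 4 and 7 under RPA1 shRNA and 3 and 4 between the 2 shRNAs. With the block 3 proliferation genes fell under RPA1 shRNA, against 5 without it.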

Other observations

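Values repeated exactly between arrays occurred in 10 of the 32 repair genes and in 44.9% of all genes. Ercc1 had the value 9.92 in 5 of 9 arrays, Xpc the value 9.09 in 4 and Xrcc1 the value 9.95 in all 3 HSF1 shRNA arrays. For 3 members all arrays of a group were equal, as for 4.51% of all genes, and the SD of such a group is 0. Of the members that passed, Xrcc1 and Ddb2 had a repeated value.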
